A study of Mus musculus with 4 samples.

Results

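Tfap2d-expressing pallial neurons of the E14.5 mouse cerebral cortex were taken as the barcodes in which the transcription factor gene Tfap2d was counted together with at least 1 count of Tafa1, Tafa2 or Nr2f2, in the raw counts. A barcode stands for 1 cell. It had to hold at least 500 counts and 300 genes, with at most 10% mitochondrial counts, and no more than 1 count over the inhibitory neuron genes Gad2 and Dlx6os1 and no more than 1 over the cell cycle genes Mki67, Top2a and Cenpf. The rule selected 51 of the 4727 kept E14.5 cells, and the whole series held 7210 kept cells. Of these Tfap2d cells, 40 came from the E14.5 library labelled knockout and 11 from the E14.5 wild-type library. They were compared with the 2058 other kept E14.5 cells that had at least 3 counts of the projection neuron genes Neurod2 and Neurod6, 1751 in the E14.5 library labelled knockout and 307 in E14.5 wild type, called the other projection neurons here.

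The series profiled cortex of mice lacking Tsku, the gene of Tsukushi, a small leucine-rich proteoglycan that cells secrete, to ask how the formation of neurons and glia shifts without it. At each age, E14.5 and the day of birth (P0), cortex from 1 knockout and 1 wild-type mouse was dissociated with trypsin, with no other treatment named. No group has a replicate, so no comparison between animals was tested, and all intervals are 95% intervals of counting error only. Tsku was counted 74 times in the E14.5 library labelled knockout and 54 times in E14.5 wild type, but 0 times in P0 knockout and 42 times in P0 wild type, so the E14.5 counts go against the label. Sex differed as well between the animals of the 2 E14.5 libraries: Xist had 6707 counts in the E14.5 library labelled knockout and 3 in E14.5 wild type, and Y-linked Ddx3y had 1 and 496. Cells were shallower in the E14.5 library labelled knockout, with a median of 2829 counts against 7345.5 in E14.5 wild type. The 2 E14.5 libraries shared 2 barcodes, none of them a Tfap2d cell.

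Tfap2d encodes AP-2 delta, a member of the AP-2 family of DNA-binding proteins with a restricted expression pattern in the nervous system. Nr2f2 and its close relative Nr2f1 encode the orphan nuclear receptors COUP-TFII and COUP-TFI, which act in the regional patterning of the pallium, where COUP-TFII marks ventral, caudal and amygdala-bound territories. Tafa1 and Tafa2 encode small secreted proteins of the TAFA family, and Ppp1r14c encodes an inhibitor of protein phosphatase 1. Glutamatergic projection neurons of the pallium are recognised by Neurod2, Neurod6 and Tbr1.

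Tfap2d and Nr2f2, which encode DNA-binding proteins, are genes on which the rule chose the cells. Nr2f1 is the COUP-TF gene that the rule did not use. The stretches upstream of these 3 genes are shown. Each is the 250 bases before the annotated start, 5′ to 3′ on the gene's strand, from RefSeq on GRCm38.p6, a different build from the GRCm39 named in the submitters' processing notes. Tfap2d lies on the plus strand at chr1:19102772-19103021, and Nr2f2 on the minus strand at chr7:70366747-70366996. Nr2f1 lies on the minus strand at chr13:78198874-78199123. Capitals mark a match to the AP-2 consensus GCCNNNGGC.
Tfap2d: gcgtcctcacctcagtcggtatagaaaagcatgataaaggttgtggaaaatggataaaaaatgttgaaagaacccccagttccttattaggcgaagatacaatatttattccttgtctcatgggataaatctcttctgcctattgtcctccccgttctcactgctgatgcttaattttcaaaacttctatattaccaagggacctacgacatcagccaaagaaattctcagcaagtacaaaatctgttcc
Nr2f2: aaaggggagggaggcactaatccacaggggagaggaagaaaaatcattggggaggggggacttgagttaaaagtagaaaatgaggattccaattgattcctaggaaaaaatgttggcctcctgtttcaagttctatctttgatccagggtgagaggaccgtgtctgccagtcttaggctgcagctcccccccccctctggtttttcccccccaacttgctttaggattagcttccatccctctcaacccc
Nr2f1: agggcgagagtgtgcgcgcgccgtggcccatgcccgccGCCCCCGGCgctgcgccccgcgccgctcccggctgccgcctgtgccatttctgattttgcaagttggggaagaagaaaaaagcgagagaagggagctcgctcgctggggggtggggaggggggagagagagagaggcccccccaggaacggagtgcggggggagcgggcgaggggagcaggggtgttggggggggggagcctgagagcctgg
The AP-2 letters were found once upstream of Nr2f1 and not upstream of Tfap2d or Nr2f2, and the COUP-TF motif AGGTCA was in none of the 3 windows on either strand. GCCNNNGGC reads the same on both strands. Among 27025 mouse promoters of the same length, 13.6% held GCCNNNGGC and 13.8% held AGGTCA, so a match or its lack describes these letters alone.

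Tfap2d was a low-count gene even where it defined the cells. It had exactly 1 count in 30 of the 40 Tfap2d cells of the E14.5 library labelled knockout and in 6 of the 11 in E14.5 wild type, with maxima of 4 and 6 counts. Tfap2d was counted in 76 of 1784 cells with at least 3 Neurod2 and Neurod6 counts in the E14.5 library labelled knockout (4.26%, exact binomial interval 3.37 to 5.30) and in 25 of 317 in E14.5 wild type (7.89%, 5.17 to 11.4). Inhibitory neurons, which should lack it, had it in 0 of 460 cells in the E14.5 library labelled knockout, where a limit of 3 counts of the total allows a share of up to 0.652%, and in 0 of 98 in E14.5 wild type, which allows up to 3.06%. Their median depths were 2669.5 and 6163 counts, against 3159.5 and 7533 in the cells with Neurod2 and Neurod6. Cycling cells had it in 7 of 830 (0.843%, 0.340 to 1.73) and 1 of 114 (0.877%, 0.0222 to 4.79). Tfap2d was thus counted more often in the projection neuron gate than in these classes, in both libraries.

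Tfap2d cells made up 2.23% (1.60 to 3.03) of Tfap2d cells and other projection neurons together in the E14.5 library labelled knockout, against 3.46% (1.74 to 6.10) in E14.5 wild type. The log2 ratio of the shares was -0.63, and its interval of -1.62 to 0.48 includes no difference. Without the condition on partner genes it was -0.80, with an interval of -1.46 to -0.09 that lies below 0. A Tfap2d count is found more readily in deeper cells, and the wild-type cells were the deeper ones. With every cell thinned to 1500 counts before the rule was applied, the shares were 1.56% (21 of 1345 cells) in the E14.5 library labelled knockout and 1.24% (3 of 241 cells) in E14.5 wild type, a log2 ratio of 0.33 (-1.42 to 2.72), so the order of the shares turned round, within a wide interval.

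The partner genes are part of the rule, and their counts describe the selection. Nr2f2 was counted in 36 of 40 Tfap2d cells of the E14.5 library labelled knockout, with a median of 3.5 counts and a maximum of 21, and in 8 of 11 in E14.5 wild type, with a median of 1 and a maximum of 56. Tafa2 was counted in 8 of 40 (interval 9.05 to 35.6%), with a maximum of 6 counts, and in 8 of 11 (39.0 to 94.0%), with a maximum of 19. Tafa1 was counted in 1 of 40 cells and in 5 of 11. A Tafa count was thus found in most wild-type Tfap2d cells and in few of the E14.5 library labelled knockout. Nr2f2 without a Tafa count was the profile of 31 of 40 cells (77.5%, 61.5 to 89.2) in the E14.5 library labelled knockout and of 3 of 11 (27.3%, 6.02 to 61.0) in E14.5 wild type. Depth moves with this split, and its part in the result was not tested on cells chosen at equal depth. After thinning the chosen cells to 1500 counts, Tafa2 was counted in 12.8% and 54.5% of them, and Nr2f2 in 76.9% and 36.4%.

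**Figure D1:**
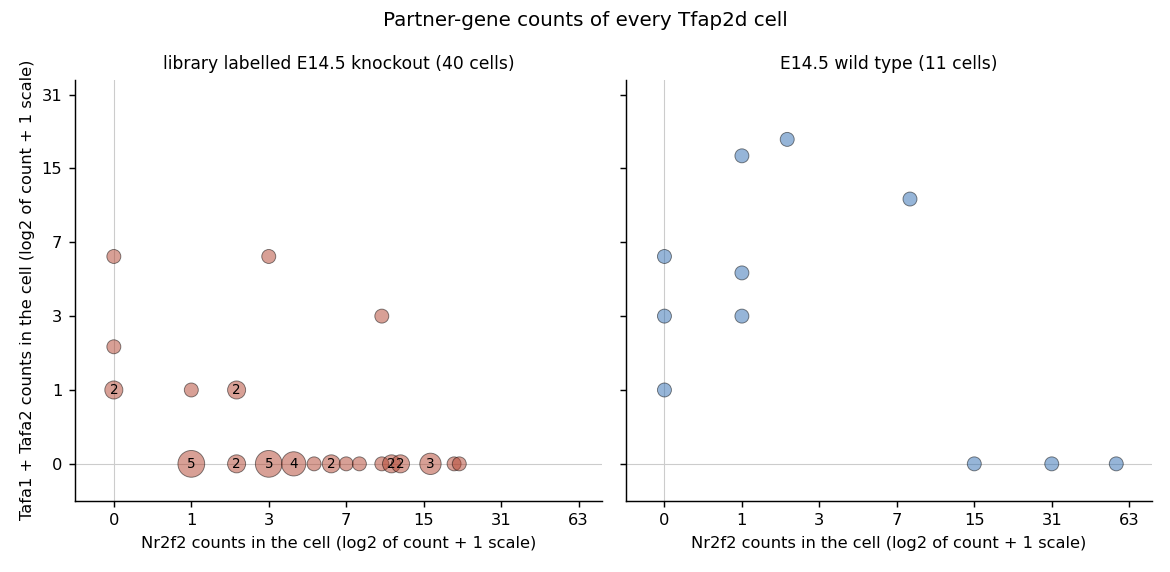
Counts of Nr2f2 (x axis) and of Tafa1 plus Tafa2 (y axis) in each Tfap2d cell, both on a log2 scale of the count plus 1, for the E14.5 library labelled knockout (left, 40 cells) and E14.5 wild type (right, 11 cells). Circle size and the number inside give the cells at one point. Most cells of the E14.5 library labelled knockout lie on the bottom line with no Tafa count (31), and most wild-type cells lie above it (8).

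The chosen genes describe the selection and are no result: in counts per 1000000 summed counts (CPM), Tfap2d stood at 375 in Tfap2d cells against 9.52 in other projection neurons of the E14.5 library labelled knockout, and at 235 against 8.32 in E14.5 wild type. Nr2f2 stood at 1467 against 162 CPM, and at 1173 against 137. Cells just inside the rule on the partner genes, with a single partner count, numbered 7 in the E14.5 library labelled knockout and 1 in E14.5 wild type. Those just outside, with Tfap2d and no partner count but within both exclusions, numbered 41 and 14. Partner-positive cells lost to the inhibitory limit numbered 1 and 0, and those lost to the cycling limit 4 and 0.

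The label was checked against genes the rule did not use. Of the 4 given markers, only Ppp1r14c lay outside the rule: it was counted in 16 of 40 Tfap2d cells at 187 CPM, against 129 CPM in other projection neurons, in the E14.5 library labelled knockout (log2 ratio 0.54, -0.04 to 1.06), and in 6 of 11 at 265 CPM against 106 in E14.5 wild type (1.32, 0.69 to 1.90). Its interval excluded 0 in wild type only. Tbr1, a transcription factor of early and deep glutamatergic neurons, stood at 456 CPM against 313 in the E14.5 library labelled knockout (0.54, 0.19 to 0.88) and at 337 against 223 in E14.5 wild type (0.59, 0.04 to 1.10). Neurod2, which only the comparison cells had to express, was present in 39 of 40 and 11 of 11 Tfap2d cells, and Neurod6 in 31 of 40 and 10 of 11. The summed Neurod2 and Neurod6 counts reached 3 in 33 of 40 cells and 10 of 11 and were 0 in none. The 10 inhibitory neuron genes outside the rule summed to 17 counts in Tfap2d cells of the E14.5 library labelled knockout (106 CPM against 158) and to 1 count in E14.5 wild type (10.2 against 41.9), with 4 and 9 of them at 0. The 9 pan projection neuron genes did not follow Tbr1: of the 8 measured, 1 lay above 0 in both libraries and 4 below, with medians of -0.10 and -0.72 and summed log2 ratios of -0.58 (-0.69 to -0.47) and -1.06 (-1.23 to -0.89). Genes of projection neurons were thus counted in the cells, on balance at lower levels than in the other projection neurons. The inhibitory neuron genes had few counts, with summed log2 ratios of -0.58 (-1.36 to 0.11) and -2.04 (-7.36 to 0.47), both intervals including 0. The rule limited Gad2 and Dlx6os1 in Tfap2d cells and not in the comparison cells, so a low sum can follow from the selection.

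Markers of other cell types were few, with 1 exception. The 6 microglial genes had 0 counts in Tfap2d cells of both libraries, the 5 endothelial genes 3 and 1, and the 5 meningeal genes 2 and 0. The 11 Cajal-Retzius genes summed to 34 and 8 counts, of which 19 and 7 were Nhlh2, with Reln, the defining gene, at 2 and 1 and Trp73 at 0 in both. The 11 thalamic and midbrain genes summed to 22 and 0, and 15 of the 22 were Otx2 in 1 cell. Choroid plexus genes summed to 1186 and 7 counts, but of the 1139 Ttr counts in the E14.5 library labelled knockout 98.9% lay in 1 cell. That cell also held the Otx2 counts, and it stayed in the sums of the Tfap2d cells. Hemoglobin genes summed to 268 CPM against 892 in the E14.5 library labelled knockout and to 122 against 143 in E14.5 wild type. The part of these counts in the results was not tested.

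The ratio of Tfap2d cells over other projection neurons was taken in each library on its own, for the 8970 genes whose counts in Tfap2d cells and other projection neurons together reached 30 in each library. A gene was called past the fold where its log2 ratio was 1 or more, or -1 or less, in both libraries. Where Tfap2d cells had 0 counts, 3 counts were used in their place, so that such a ratio is a bound. Of these genes, 77 were past the fold upwards (0.858%) and 158 downwards (1.76%), and the median ratio over all genes was -0.02 in the E14.5 library labelled knockout and 0.00 in E14.5 wild type. Many of these rest on a handful of counts. Limited to the 2513 genes with at least 10 Tfap2d-cell counts, observed or expected, in both libraries, 23 were higher (0.915%) and 18 lower (0.716%), and the genes named next are from the naming rule, from gene lists or, for Thsd7a, Adgrl3, Fign, Npas3 and Glra2, from the 23, chosen after their values were seen. In single libraries, 5.88% of 10897 genes were higher and 8.67% lower by this fold in the E14.5 library labelled knockout, and 7.46% of 9000 higher and 10.9% lower in E14.5 wild type.

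The COUP-TF gene Nr2f1 led the broadly expressed genes that were higher. It stood at 1386 CPM in Tfap2d cells against 420 in other projection neurons of the E14.5 library labelled knockout (log2 ratio 1.72, 1.52 to 1.92), and at 1020 against 401 in E14.5 wild type (1.35, 1.04 to 1.64). It was counted in 36 of 40 Tfap2d cells, with a lowest, median and highest count of 0, 4.5 and 19, and in 11 of 11, with 1, 9 and 23. Thinned to 1500 counts per cell, 79.5% of Tfap2d cells had it against 38.7% of other projection neurons in the E14.5 library labelled knockout, and 63.6% against 36.8% in E14.5 wild type. High Nr2f1 was therefore spread over most of the cells, and the gap was also present at equal depth.

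Thsd7a, which encodes a membrane-bound thrombospondin-domain protein, had the highest lower interval bound of the well-counted genes, taking for each gene the lower of its bounds in the 2 libraries. It had 237 CPM against 29.2 in the E14.5 library labelled knockout (3.02, 2.48 to 3.53) and 581 against 33.6 in E14.5 wild type (4.11, 3.61 to 4.60). It was counted in 15 of 40 and 7 of 11 Tfap2d cells, against 5.43% and 7.82% of other projection neurons. Lmo3, a LIM-only transcriptional cofactor, had 287 CPM against 71.0 (2.02, 1.55 to 2.46) and 255 against 58.6 (2.12, 1.45 to 2.74), in 21 of 40 and 5 of 11 cells. At this depth a cell without a count of either gene may still express it. Cyp26b1, which degrades retinoic acid, had 99.9 CPM against 8.03 in the E14.5 library labelled knockout (3.64, 2.73 to 4.46), in 7 cells, whereas its 19 wild-type counts all lay in 1 cell.

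Several adhesion and signalling genes were also higher. Adgrl3, an adhesion receptor of the latrophilin family, had log2 ratios of 2.05 (1.56 to 2.51) in the E14.5 library labelled knockout and 2.67 (2.13 to 3.18) in E14.5 wild type. Pcdh19, a protocadherin, had 1.63 (1.20 to 2.03) and 2.45 (1.85 to 3.01), and Pcdh9 and Pcdh10 had 1.10 and 1.34 in the E14.5 library labelled knockout and 2.12 and 1.47 in E14.5 wild type. Dner, a Notch-related transmembrane protein, had 250 CPM against 113 (1.15, 0.65 to 1.61) and 490 against 81.4 (2.59, 2.11 to 3.04), in 19 of 40 and 10 of 11 cells. The transcription factor gene Npas3 had 1.85 (1.04 to 2.57) and 3.37 (2.66 to 4.04), the microtubule-severing gene Fign 2.92 (2.05 to 3.69) and 3.41 (2.65 to 4.12), and the glycine receptor gene Glra2 1.66 (1.05 to 2.22) and 1.17 (0.08 to 2.10). In wild-type Tfap2d cells, 1 cell held 53.8% of the Npas3 counts and 1 cell held 56.5% of the Fign counts. Their wild-type ratios thus rest largely on single cells. Rprm, a p53-responsive gene used as a deep-layer marker, had 855 CPM against 391 (1.13, 0.87 to 1.38) and 1397 against 277 (2.34, 2.06 to 2.60), and 45.3% of its wild-type counts lay in 1 cell. Tafa5, a TAFA gene outside the rule, had 1.23 (0.60 to 1.80) and 2.05 (1.22 to 2.79). Tafa3 and Tafa4, also outside the rule, had 0 counts in Tfap2d cells of both libraries.

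Other genes of the naming rule also had both intervals above 0. Nsg2, a neuronal endosomal protein, had 0.62 (0.45 to 0.79) in the E14.5 library labelled knockout and 0.79 (0.56 to 1.00) in E14.5 wild type, and Olfm1, a secreted olfactomedin, had 0.85 (0.54 to 1.14) and 0.96 (0.61 to 1.29). The ephrin receptor Epha5 had 0.68 (0.42 to 0.93) and 1.33 (0.98 to 1.66). Dcx, Ncam1, Nnat and Stmn1 had 0.36, 0.36, 0.36 and 0.18 in the E14.5 library labelled knockout and 0.52, 0.58, 1.27 and 0.42 in E14.5 wild type. Sp4, Hdgfl3, Gng2 and Agrn had 1.02, 0.46, 0.36 and 0.70, and 1.37, 0.71, 0.53 and 0.83, with Sp4 on 21 and 15 counts. In Tfap2d cells with at least 2 Tfap2d counts, Stmn1 was at -0.042 in the E14.5 library labelled knockout.

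**Figure D2:**
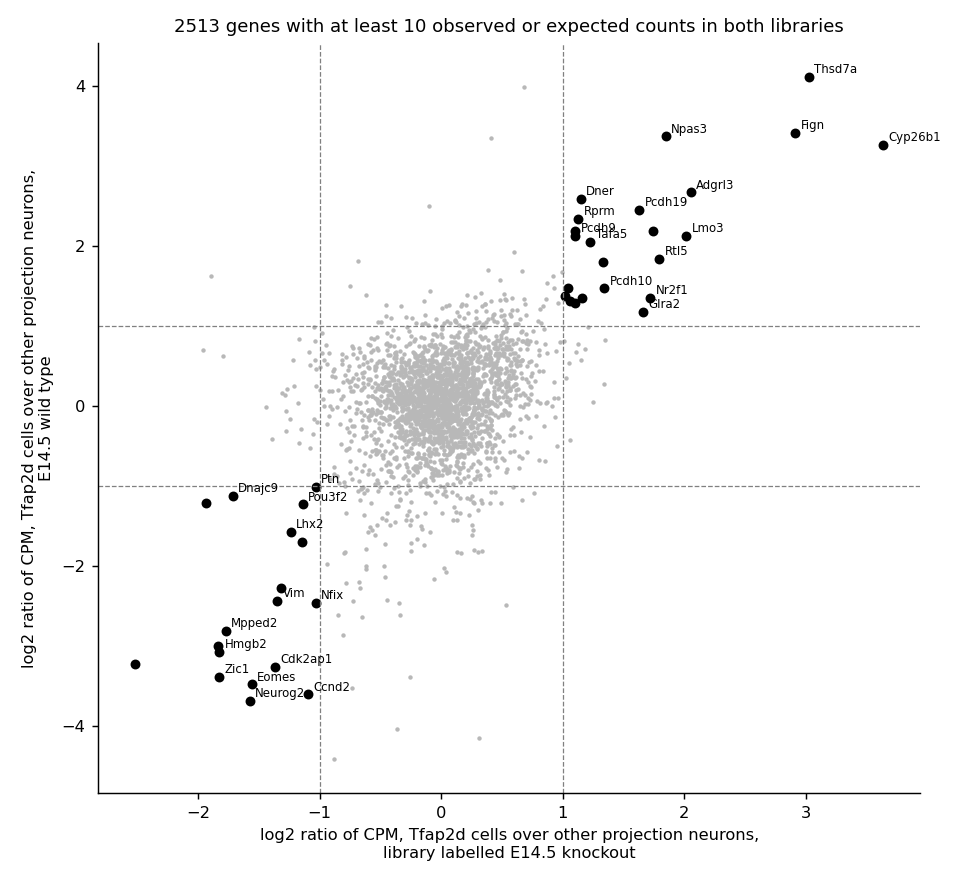
Log2 ratio of CPM in Tfap2d cells over other projection neurons in the E14.5 library labelled knockout (x axis) and in E14.5 wild type (y axis) for the 2513 genes with at least 10 observed or expected Tfap2d-cell counts in both libraries. Dashed lines mark ratios of 1 and -1, and black points are the 23 genes above and the 18 below these lines in both libraries. Thsd7a, Cyp26b1 and Fign lie farthest to the upper right and most black points on the lower side lie between ratios of -1 and -2 in the E14.5 library labelled knockout.

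Among the genes that were lower were those of the nuclear factor I family, which promote maturation in cortical neurons and glia. Nfib, one of the most abundant regulators of these neurons, had 2248 CPM against 4300 in the E14.5 library labelled knockout (-0.94, -1.09 to -0.79) and 1081 against 4274 in E14.5 wild type (-1.98, -2.27 to -1.71). It was counted in 31 of 40 and 7 of 11 Tfap2d cells, whereas 97.7% and 97.4% of other projection neurons had it. Nfix had 681 against 1391 (-1.03, -1.32 to -0.76) and 337 against 1852 (-2.46, -3.00 to -1.97), in 15 of 40 and 5 of 11 cells. Nfia had -0.73 (-1.03 to -0.46) and -3.52 (-4.74 to -2.54). Per cell, Nfix exceeded the median of other projection neurons, scaled to depth, in 8 of 40 Tfap2d cells and in 0 of 11, Nfib in 4 and 1, and Nfia in 9 and 1.

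Other regulators of the dorsal and upper-layer programme were lower as well. Lhx2, a LIM homeobox gene of the dorsal and medial pallium, had -1.24 (-1.85 to -0.68) in the E14.5 library labelled knockout and -1.57 (-2.45 to -0.82) in E14.5 wild type. Pou3f2, a POU factor of upper-layer neurons, had -1.14 (-1.87 to -0.49) and -1.23 (-1.91 to -0.63). Emx2, a homeobox gene of the medial and dorsal pallium, had 0 counts in Tfap2d cells of both libraries, against 46.9 and 61.1 CPM in other projection neurons, while Emx1 had -0.14 (-0.90 to 0.53) and -0.16 (-1.62 to 0.99). Neurod6 had 1105 CPM against 1540 and 724 against 1823, but the comparison cells were chosen on it.

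Genes of progenitors and newborn neurons were low. The intermediate progenitor genes Eomes and Neurog2 had -1.56 (-2.23 to -0.96) and -1.57 (-2.58 to -0.73) in the E14.5 library labelled knockout, with 22 and 11 counts. In E14.5 wild type they had -3.48 (-5.36 to -2.12) and -3.69 (-8.99 to -1.20), with 4 and 1 counts. Vim, Hmgb2, Ccnd2 and Mpped2 had 15, 13, 33 and 12 counts in the E14.5 library labelled knockout (-1.35, -1.82, -1.09 and -1.77) and 0 counts each in E14.5 wild type. The rule limited cycling genes in Tfap2d cells and not in the comparison cells, so low values of these genes can follow from the selection. The 11 radial glia genes summed to 81 and 22 counts (-1.15, -1.49 to -0.84, and -1.96, -2.64 to -1.36), with 7 of 10 measured below 0 in both libraries and none above. The 8 intermediate progenitor genes summed to 126 and 26 (-0.76, -1.03 to -0.51, and -2.23, -2.84 to -1.67), with 5 of 7 below 0 in both and none above. Against the 1507 and 273 comparison cells that had no Tfap2d count and met the same limits, Hmgb2 was at 0.07 in the E14.5 library labelled knockout and -0.64 or less in E14.5 wild type.

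Gene lists put these values in context, and each count is to be read beside all 8970 genes, of which 2027 lay above 0 and 2387 below 0 in both libraries. The balance was the opposite among the 2513 genes with at least 10 Tfap2d-cell counts, observed or expected, with 804 above and 610 below. Lists of well-counted genes are to be read beside these. Of 18 genes of the ventral and lateral pallium and amygdala, 11 were measured in both libraries, 4 lay above 0 in both and 4 below, and the list median was 0.18 in the E14.5 library labelled knockout and -0.04 in E14.5 wild type. Past the fold were Nr2f1, Lmo3 and Cyp26b1 upwards and Lhx9 and Dach1 downwards, the last pair with 5 and 1 counts in the E14.5 library labelled knockout and 0 and 1 in E14.5 wild type. The amygdala-related genes Otp, Sim1 and Lhx5 had 0 counts in both. They were also rare in other projection neurons, counted in 3, 5 and 9 of 1751 cells in the E14.5 library labelled knockout. In E14.5 wild type they were counted in 0, 0 and 1 of 307, so their lack does not set the Tfap2d cells apart. The list therefore moved in both directions, and its summed excess (log2 ratio 0.72, 0.59 to 0.85, and 0.35, 0.17 to 0.52) came largely from Nr2f1. Of the 12 medial pallial and hippocampal genes, 8 were measured and 2 were past the fold, both downwards (Lhx2 and Nfix). Zbtb20, a hippocampal regulator on that list, had 0.66 (0.34 to 0.97) in the E14.5 library labelled knockout and -0.33 (-0.70 to 0.02) in E14.5 wild type.

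All 13 upper-layer genes were measured, with 8 below 0 and 3 above in both libraries, medians of -0.84 and -0.98, and 4 past the fold, all downwards, among them Pou3f2, Lhx2 and Inhba, the last on 2 and 1 counts. Cux2, an upper-layer homeobox gene, went the other way, with 0.42 (-0.40 to 1.13) in the E14.5 library labelled knockout and 1.10 (0.41 to 1.73) in E14.5 wild type. The 14 deep-layer genes were split, with 3 above 0 and 4 below in both, medians of -0.43 and 0.00, and Rprm and Lmo3 past the fold upwards. Bcl11b (Ctip2), the regulator of subcerebral projection neurons, was present in 38 of 40 and 11 of 11 Tfap2d cells, at -0.39 (-0.59 to -0.19) in the E14.5 library labelled knockout and 0.59 (0.36 to 0.82) in E14.5 wild type, intervals on opposite sides of 0. Against comparison cells with Bcl11b and Fezf2 counts, the wild-type value was -0.085 (-0.32 to 0.14). Those comparison cells were chosen on Bcl11b itself and the Tfap2d cells were not, so a lower ratio follows from the choice. Fezf2, another subcerebral regulator, had -0.46 (-0.97 to -0.00) and -1.73 (-2.95 to -0.75), the wild-type value turning to 0.034 (-1.87 to 1.43) after thinning, and Sox5 had -0.57 (-0.84 to -0.31) and -1.55 (-2.29 to -0.91). Foxp2, of deep-layer corticothalamic neurons, had 0 counts in both. Deep-layer genes thus had no common direction beside the low upper-layer genes.

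Among lists that the layer names do not cover, 15 of 23 maturation and cytoskeleton genes lay above 0 in both libraries and 2 below, with medians of 0.11 and 0.45 and none past the fold. Mapt, encoding tau, had 0.37 (0.14 to 0.60) and 0.60 (0.39 to 0.80). The neurofilament gene Nefm had 18 counts in 12 of 40 cells in the E14.5 library labelled knockout, and 72.5% of its 167 wild-type counts lay in 1 cell. Of 21 cadherins, 15 were measured, 6 lay above 0 in both and 3 were past the fold upwards (Pcdh9, Pcdh10 and Pcdh19). Of 35 axon guidance genes, 29 were measured, 12 lay above 0 and 7 below in both, and Slit2 was past the fold upwards (12 and 5 counts) and Sema7a downwards (5 and 3 counts). No gene was past the fold among the 20 measured of 27 immunoglobulin and synaptic adhesion genes or the 13 measured of 26 glutamate and GABA receptor genes. Of the 17 measured of 24 voltage-gated channel genes, 8 lay above 0 in both, and only Kcnj3, with 1 count in each library, was past the fold, downwards. Of 22 neuropeptides and receptors, 17 had 0 counts in the E14.5 library labelled knockout and 19 in E14.5 wild type. Of 26 other neuronal transcription factors, 21 were measured, 4 lay above 0 and 8 below in both, and Pbx3 alone was past the fold, upwards. Pbx3 had 9 and 8 counts, and 75.0% of the wild-type ones lay in 1 cell. Of 11 immediate early genes, 7 were measured, 3 lay below 0 in both and none above, and Ier2 was past the fold downwards on 1 and 2 counts. The 10 subplate genes had 14 and 36 counts, and 35 of the 36 were Nr4a2 in 1 cell. Of the other 4 AP-2 genes, 1 count was found in each library.

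**Figure D3:**
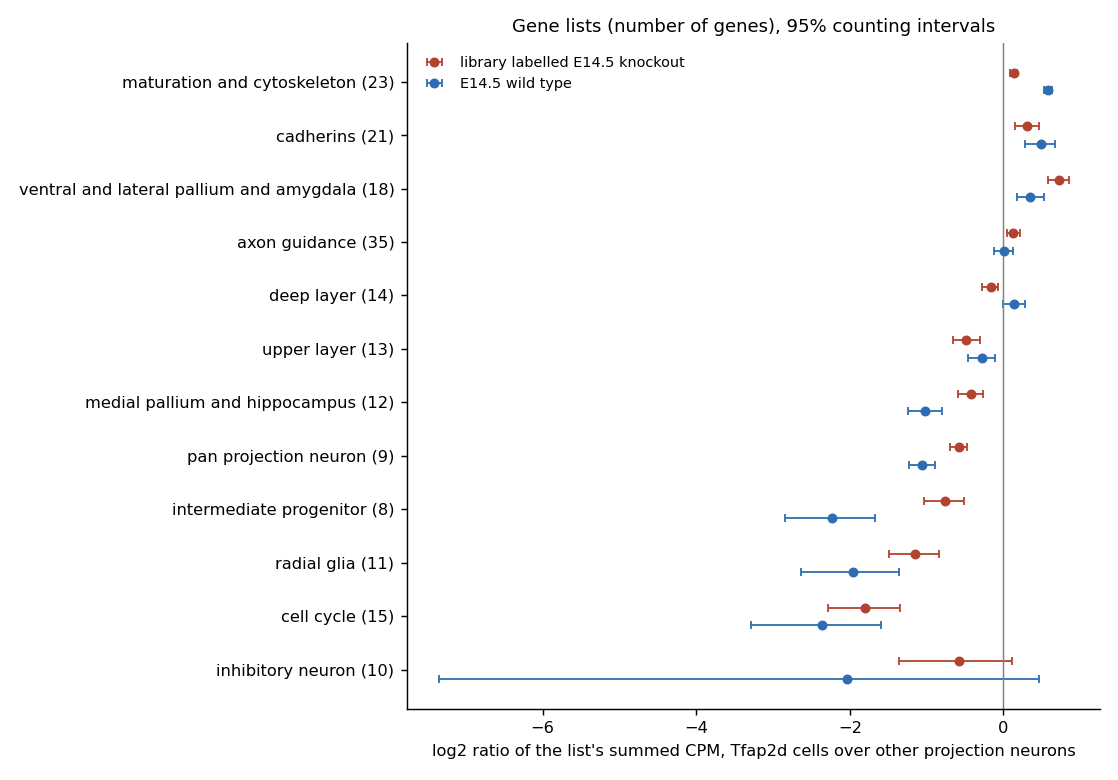
Log2 ratio of the summed CPM of each gene list, Tfap2d cells over other projection neurons, in the E14.5 library labelled knockout (red) and in E14.5 wild type (blue), with 95% counting intervals and the number of genes in brackets. Genes that the rule used are left out of the sums. The rule limited cell cycle and inhibitory neuron genes in Tfap2d cells and not in the comparison cells. Low values of these 2 lists can therefore follow from the selection. Of the lists shown, the cell cycle list lies lowest in both libraries, at -1.80 and -2.37, the radial glia and intermediate progenitor lists also have both intervals below 0, and the ventral and lateral pallium list lies at 0.72 and 0.35.

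Tfap2d-counted cells without a partner count, just outside the rule, differed from the Tfap2d cells in several genes. Both kinds were chosen on a Tfap2d count, which sets their Tfap2d level, 375 CPM in Tfap2d cells against 432 in these cells in the E14.5 library labelled knockout (log2 ratio -0.21, -0.75 to 0.34) and 235 against 234 in E14.5 wild type (0.00, -0.91 to 0.91). Pou3f2 separated them, with 119 CPM in Tfap2d cells against 776 in the E14.5 library labelled knockout (-2.71, -3.50 to -1.99) and 224 against 926 in E14.5 wild type (-2.05, -2.79 to -1.36). The axon guidance receptor gene Robo2 had 306 against 962 (-1.65, -2.16 to -1.17) and 357 against 1118 (-1.65, -2.24 to -1.08). Pou3f2 and Robo2 were thus lower where a partner was counted with Tfap2d, in both libraries.

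The reverse held for other genes. Rprm had 855 CPM in Tfap2d cells against 157 in Tfap2d-counted cells without a partner in the E14.5 library labelled knockout (2.45, 1.78 to 3.19) and 1397 against 95.8 in E14.5 wild type (3.87, 2.90 to 5.03). Fezf2 had 237 against 52.2 (2.18, 1.00 to 3.59) and 81.6 against 10.6 (2.94, 0.04 to 8.41), and Lmo3 had 2.46 (1.30 to 3.85) and 1.58 (0.39 to 2.94). The neuronal cytoskeleton genes Ina and Mapt had 1.53 and 1.35 in the E14.5 library labelled knockout and 1.69 and 1.32 in E14.5 wild type, all with intervals above 0. Cyp26b1 had 16 and 19 counts in Tfap2d cells and 0 and 0 without a partner. Thsd7a, however, was high with or without a partner: 237 against 164 CPM (0.53, -0.26 to 1.36) and 581 against 564 (0.04, -0.52 to 0.61). Nfix was likewise low in both kinds, at 681 against 529 CPM (0.36, -0.08 to 0.81) and 337 against 458 (-0.44, -1.14 to 0.24). High Thsd7a and low Nfix were thus found with or without a partner count, and low Pou3f2 with one. The marker Ppp1r14c did not separate the Tfap2d cells in one direction, with 187 against 440 CPM in the E14.5 library labelled knockout (-1.23, -1.92 to -0.57) and 265 against 202 in E14.5 wild type (0.39, -0.52 to 1.33).

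The same question was asked from the other side, with projection neurons that had a partner count and no Tfap2d count (312 cells in the E14.5 library labelled knockout and 87 in E14.5 wild type). Against these, Thsd7a was at 1.85 (1.26 to 2.42) and 4.19 (3.49 to 4.91). Lmo3 was at 1.61 (1.09 to 2.11) and 1.41 (0.70 to 2.08), Pcdh10 at 1.41 and 1.42, and Nfib at -0.68 (-0.83 to -0.52) and -1.79 (-2.08 to -1.51). Nr2f1 was at 0.70 (0.49 to 0.91) and 0.56 (0.24 to 0.87), a smaller gap than against all other projection neurons. Pou3f2 was at 0.25 (-0.53 to 0.95) and -0.26 (-0.97 to 0.37), with 0 inside both intervals. High Lmo3 was thus found against cells with either Tfap2d or a partner alone.

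The Tfap2d cells themselves fell into those with a Tafa count (9 in the E14.5 library labelled knockout and 8 in E14.5 wild type) and those with Nr2f2 alone (31 and 3). Rprm was lower in the Tafa cells, with 137 CPM in cells with a Tafa count against 1016 in cells with Nr2f2 alone in the E14.5 library labelled knockout (-2.89, -4.79 to -1.50) and 594 against 4432 in E14.5 wild type (-2.90, -3.44 to -2.37). Fezf2 had 1 count against 37 (-3.05, -8.39 to -0.48) and 0 against 8 counts (-3.33 or less). With cells thinned to 1500 counts, a setting added after the values were seen, the Fezf2 ratio turned to 0.15 (-5.56 to 3.79) in the E14.5 library labelled knockout. Nr2f1 was lower in the Tafa cells too, at 923 against 1490 CPM (-0.69, -1.33 to -0.11) and 697 against 2240 (-1.68, -2.28 to -1.09). Npas3 was higher in them, at 410 against 38.2 CPM (3.43, 1.82 to 5.28) and 323 against 48.7 (2.73, 0.12 to 8.09). So were Nrp2, a semaphorin receptor gene, with 12 counts against 12 at 410 against 91.7 CPM (2.16, 0.88 to 3.45) and 35 against 0 counts (1.63 or more), and Ppp1r14c, at 410 against 138 CPM (1.58, 0.39 to 2.71) and 26 against 0 counts (1.20 or more). All wild-type Ppp1r14c counts in Tfap2d cells thus lay in cells with a Tafa count.

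Of the 23 maturation and cytoskeleton genes, Map1b, Mapt and Stmn2, chosen after their values were seen, were also higher in the Tafa cells. Map1b was at 0.82 (0.54 to 1.10) and 0.79 (0.46 to 1.14), Mapt at 1.12 (0.63 to 1.60) and 0.97 (0.35 to 1.65), and Stmn2 at 0.92 (0.46 to 1.36) and 2.13 (1.26 to 3.16). In wild-type Tfap2d cells, 34.5% of the Map1b counts lay in 1 cell. The rest of that list is not described between these kinds of cell. Bcl11b and Tbr1 showed no difference beyond counting error, with Bcl11b at 0.10 (-0.44 to 0.61) and -0.02 (-0.57 to 0.56) and Tbr1 at 0.33 (-0.57 to 1.15) and -0.02 (-1.27 to 1.43). With the cell of highest count left out, a setting added after the values were seen, Rprm was at -2.76 and -2.25, Npas3 at 3.41 and 1.72, and Ppp1r14c at 0.97 in the E14.5 library labelled knockout, where its interval then included 0. With only 3 wild-type cells on 1 side, each wild-type value is a value of those cells.

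**Figure D4:**
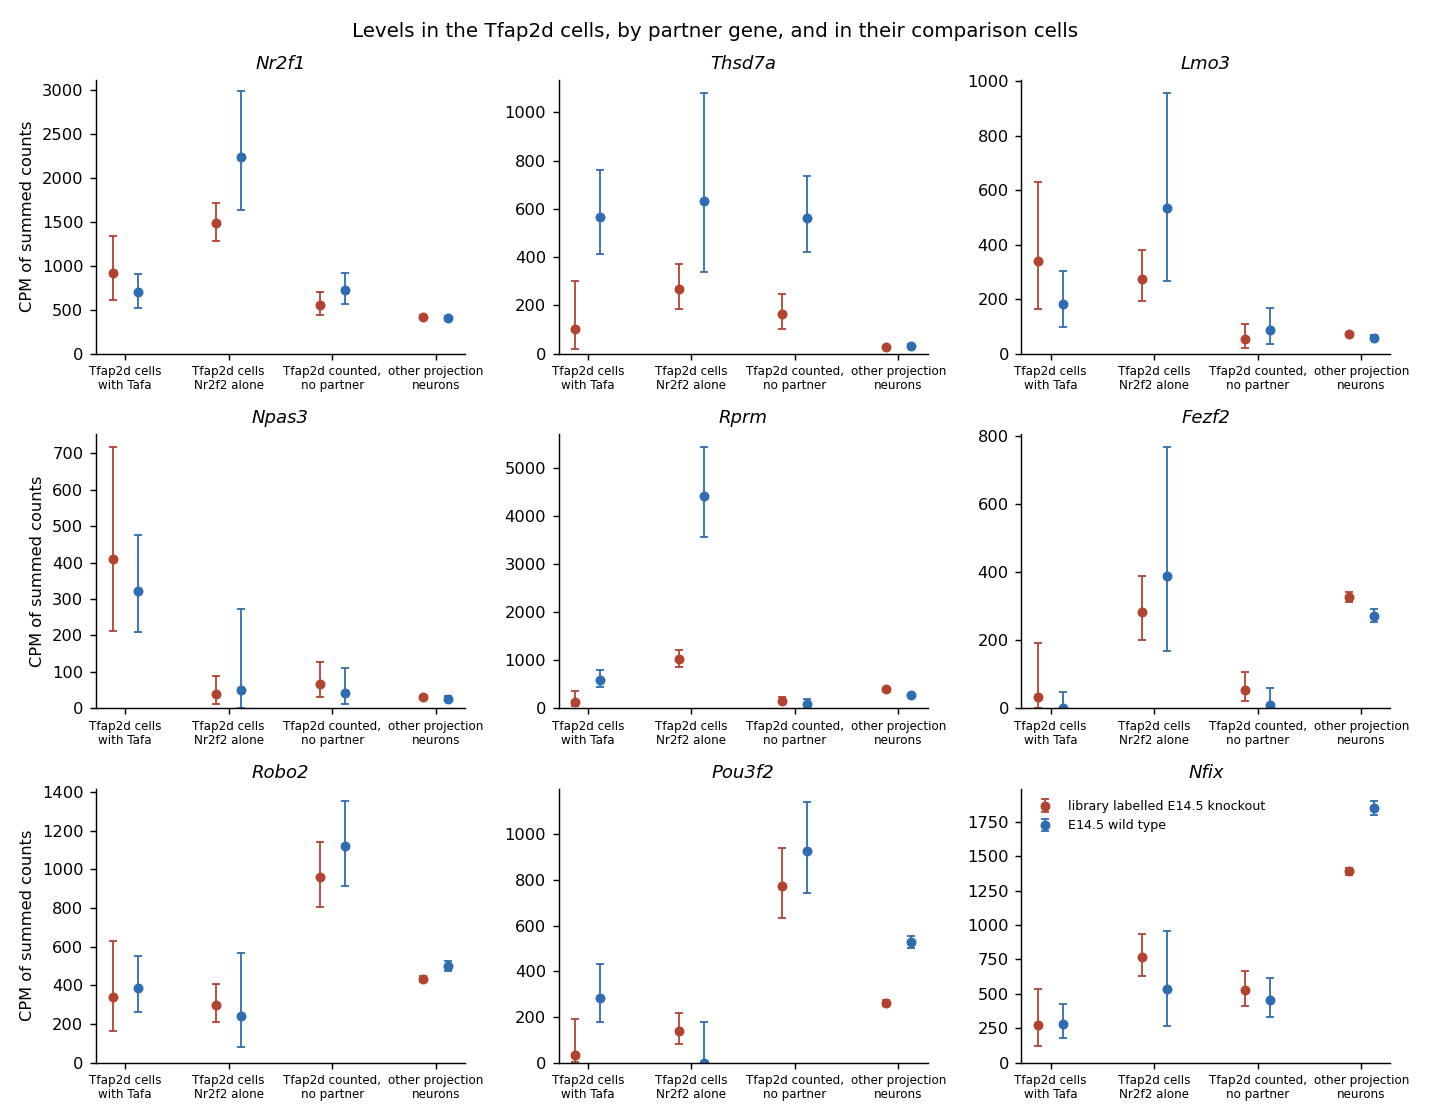
CPM of 9 genes in 4 kinds of cell, from left to right Tfap2d cells with a Tafa count, Tfap2d cells with Nr2f2 alone, Tfap2d-counted cells without a partner count, and other projection neurons, in the E14.5 library labelled knockout (red) and in E14.5 wild type (blue). Bars are exact Poisson 95% intervals of the summed counts. Npas3 is highest in cells with a Tafa count (410 and 323 CPM), Rprm in cells with Nr2f2 alone (1016 and 4432), and Pou3f2 and Robo2 in cells without a partner (776 and 926, 962 and 1118).

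Between the libraries, 1944 genes had at least 30 counts over the Tfap2d cells of both. Of these, 145 (7.46%) were higher by a log2 ratio of 1 or more in Tfap2d cells of the E14.5 library labelled knockout and 127 (6.53%) were lower, and in other projection neurons 5 (0.257%) and 31 (1.59%) of them were past the same fold in the same direction. Nfia had 105 counts in the E14.5 library labelled knockout against 8 in E14.5 wild type (log2 ratio of CPM 3.01, 1.97 to 4.26), and 0.22 in other projection neurons. Insm1, a zinc-finger gene of newborn neurons, had 46 against 3 counts (3.23, 1.59 to 5.56), and 0.09 in other projection neurons. Dcc, a netrin receptor gene, had 67 against 10 (2.04, 1.07 to 3.16), and 0.57 in other projection neurons, but -0.76 (-2.53 to 0.90) in Tfap2d cells with at least 2 Tfap2d counts. Tusc3, Ago1 and Selenof had 3.42, 2.29 and 2.66, and 0.39, 0.25 and 1.09 in other projection neurons. Id2, an inhibitor of basic helix-loop-helix factors, had 83 counts against 3 (4.08, 2.48 to 6.39), and -0.38 in other projection neurons, but was named from the gene lists and for its difference between the libraries after its values were seen.

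The 6 genes named as lower in the E14.5 library labelled knockout all encode ribosomal proteins, and were lower by about as much in other projection neurons. Rps28 had 21 against 90 counts (-2.81, -3.57 to -2.11), and -3.01 in other projection neurons, and Rps29, Rps25, Rpl26, Rpl37rt and Rpl39 had -2.45, -2.29, -2.16, -2.24 and -1.71, and -2.19, -1.92, -2.15, -1.95 and -1.63. These genes thus differed between the libraries in both kinds of cell.

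The make-up of the Tfap2d cells also moves with the libraries, since 9 of 40 cells had a Tafa count in the E14.5 library labelled knockout and 8 of 11 in E14.5 wild type. Within cells with Nr2f2 alone, the log2 ratio of the E14.5 library labelled knockout over E14.5 wild type was 1.99 (0.58 to 3.89) for Nfia, on 101 and 4 counts, 1.82 (-0.12 to 4.91) for Insm1 and 3.30 (0.77 to 8.63) for Dcc. Within cells with a Tafa count it was 1.41 (-1.02 to 3.83) for Nfia, on 4 and 4 counts, and 0.24 (-1.92 to 2.08) for Dcc. Insm1 had 1 count against 1 there. Each of these intervals is wide, and the wild-type sums of these genes within either kind of cell were 9 counts or fewer. Genotype label, sex, depth and the single animal per group cannot be told apart here.

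**Figure D5:**
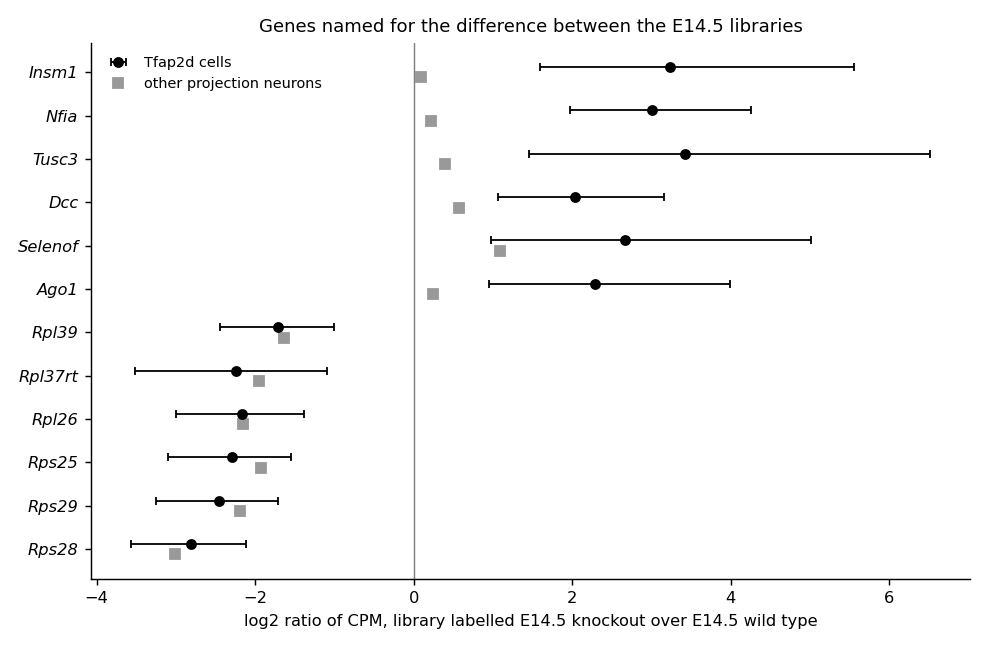
Log2 ratio of CPM in the E14.5 library labelled knockout over E14.5 wild type for the 6 highest and 6 lowest genes by the naming rule, in Tfap2d cells (black circles, 95% counting intervals) and in other projection neurons (grey squares). For Nfia and Insm1 the squares lie near 0 (0.22 and 0.09), and for the 6 ribosomal protein genes they lie beside the circles.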

How the data were processed

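Single-cell RNA-seq count matrices of 4 libraries, 1 animal each, were used as deposited. The authors deposited raw counts per gene and barcode, per the file headers (57126 features), and the 2 E14.5 libraries held 14423600 and 5607941 counts (library labelled knockout, wild type). FastQC 0.12.1, Seurat 5, R 4.3.2 and the build GRCm39 are named in the submitters' processing notes, while the aligner and the counter were not given in the sources used here. Barcodes were kept at 500 counts, 300 genes and at most 10% mitochondrial counts. Members and gene lists were chosen with earlier results of these data known.

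Counts were summed per class and library and scaled to CPM (counts per 1000000). Log2 ratios carry conditional binomial 95% intervals, shares carry exact binomial (Clopper-Pearson) intervals, and a sum of 0 was set to 3 counts, with the ratio capped at 0. Genes needed 30 counts over both sums. With 1 library per group there is no replicate, no p-value was computed, and cells were not treated as replicates. Named genes were the 12 in each direction, with at least 10 counts, one sign in both libraries and no cell over 20% of the counts, whose interval bound nearest 0 was largest in the weaker library, and 6 in each direction between libraries under the same limits. List genes were named where they had the most counts or were past the fold. Genes outside this were chosen after their values were seen, among them Thsd7a, Adgrl3, Fign, Npas3, Glra2 and the list genes described between kinds of Tfap2d cell. Counting all genes past the fold under the limit of 10 counts was added after the data were seen. Scrublet in scanpy 1.11.5 called 0 and 2 doublets, under 0.5% of cells, so doublets were not separated. The sums and intervals were tested on simulated data. R 4.3.3 with edgeR 4.0.16 (TMM factors only) and Python 3.11.15 with pandas 2.3.3, scipy 1.17.1 and numpy 2.4.6 were used. Values of some genes are not reported here.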

Additional observations from a re-analysis of the deposited data

Results flagged for a closer look

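The same rule, applied to the P0 libraries that no comparison above used, was met by 16 cells in P0 knockout and by 8 cells in P0 wild type. They are given because cells meeting the rule were found outside the E14.5 libraries. Over the other P0 projection neurons, Pcdh19 had log2 ratios of 2.71 (2.18 to 3.21) in P0 knockout and 3.00 (2.07 to 3.82) in P0 wild type, Thsd7a had 1.60 (0.78 to 2.34) and 4.04 (3.45 to 4.60), and Nr2f1 had 0.65 (0.38 to 0.91) and 1.72 (1.37 to 2.05). Bcl11b had 1.25 (0.75 to 1.72) and 2.16 (1.67 to 2.62). Nfix had -0.73 (-0.92 to -0.54) and -1.28 (-1.68 to -0.91). Lmo3 had 0 counts in P0 knockout and 2.68 (1.73 to 3.52) in P0 wild type. The difference between ages was not tested.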

How the results depend on the processing

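No paired analysis was possible because each group has 1 library. Of the values of single genes, 891 kept their direction and size under the alternatives, 150 moved and 7 reversed. With cells thinned before the rule the share of Tfap2d cells was 1.56% in the E14.5 library labelled knockout and 1.24% in wild type, with Tfap2d at 2 or more counts 0.560% and 1.58%, and without the partner condition 4.51% and 7.86%. Genes past the fold in both libraries numbered 254 higher with no filter on low counts, 23 higher and 32 lower with cells thinned to 1500 counts, 209 higher with Tfap2d at 2 or more, 51 higher against comparison cells with Bcl11b and Fezf2, 127 higher and 272 lower with cells weighted equally, and 23 higher and 18 lower with the 10-count limit, added after the data were seen. Between the libraries, 1273 genes were higher and 1211 lower with no filter, 40 and 25 after thinning, and 19 and 61 with Tfap2d at 2 or more. With Tfap2d at 2 or more, Stmn1 reversed to -0.042 in the E14.5 library labelled knockout and Dcc between libraries to -0.76. Hmgb2 was at 0.069 in the E14.5 library labelled knockout against the stricter comparison cells. Against cells with Bcl11b and Fezf2, a choice of cells made on Bcl11b itself, Ptn was at 0.21 and Bcl11b at -0.085 in wild type. After thinning, Fezf2 was at 0.034 in wild type, and at 0.15 for Tafa cells over cells with Nr2f2 alone in the E14.5 library labelled knockout, a setting added after the data were seen. Thinning leaves fewer counts per gene, the low-count filter changes how many genes are tested, and the cause of the other changes was not tested. Depth limits every gene under about 10 counts, and the 11 wild-type cells limit every value of that library.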
